A study of Mus musculus with 4 samples.

Results

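The TEAD factors and their Vestigial-like (VGLL) cofactors were followed through the ATAC-seq peak lists of 4 mouse small cell lung cancer (SCLC) lines. The 7 genes were Tead1, Tead2, Tead3, Tead4, Vgll2, Vgll3 and Vgll4, out of 21938 protein-coding genes annotated on mm10 in GENCODE M21. Each gene was given a window made of its body and 50 kb on either side, and every peak overlapping a window was taken. The 7 windows held 87 peaks in SMC 1, 145 in SMC 2, 113 in non-SMC 1 and 124 in non-SMC 2. Overlapping peaks of the 4 lists were merged, which gave 324 regions of 357570 in the genome.

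SMC, the SCLC metastasizing cells, were the NCAM hi CD44 lo/- fraction sorted by FACS, and non-SMC were the NCAM lo CD44 hi fraction. All lines came from lung tumors of Rb1 L/L, Trp53 L/L mice on a mixed C57Bl/6, Balb-c and S129 background, in which Cre removes both genes, so that SMC and non-SMC shared both deletions. The lines were untreated, each was 1 library, and SMC and non-SMC lines of the same number were called paired by the submitters. With 2 lines of each type the smallest two-sided exact permutation p is 0.333, so no test was made and all differences below are descriptions of these 4 lines.

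TEAD1 to TEAD4 bind DNA at motifs with the core GGAATG but activate transcription poorly on their own. They work with the co-activators YAP and TAZ, which the Hippo kinase cascade keeps out of the nucleus. VGLL proteins have no DNA-binding domain of their own and bind TEADs through a short tondu domain at a surface that overlaps the one used by YAP and TAZ. VGLL4 is known as a competitor of YAP and a repressor of TEAD targets, VGLL2 for its part in skeletal muscle, and VGLL3 for roles in mesenchymal and muscle cells.

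Fold enrichment is the height of a peak over its local background at the summit, as the peak caller gave it, with the same constant added to both. Its percentile is the rank of that value within the list of the same line, from 0 to 100. The pileup is the number of fragments at the summit, recovered from fold enrichment and p. A region was called non-SMC-only where both non-SMC lists and neither SMC list had a peak in it, and SMC-only in the opposite case.

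The sequences below are the 201 bases around the summit of the highest peak in those leading type-specific regions that held a TEAD core or an AP-1 site. Leading regions with neither motif are not printed, so the sequences do not show how common the motifs are in type-specific regions. They are mm10 plus strand, 5′ to 3′, and capitals mark GGAATG or TGACTCA on either strand, so that TGAGTCA is an AP-1 site read from the other strand. AP-1 is the FOS and JUN family of factors, which often binds beside TEADs at enhancers. Each name gives the gene whose window held the region and the type of line in which it was found.
Tead1 non-SMC-only region, chr7:112697120-112697320: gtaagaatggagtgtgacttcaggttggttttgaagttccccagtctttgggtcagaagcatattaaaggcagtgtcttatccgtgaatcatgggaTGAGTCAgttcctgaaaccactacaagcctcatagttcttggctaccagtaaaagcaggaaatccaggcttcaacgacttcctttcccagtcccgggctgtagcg
Tead3 non-SMC-only region, chr17:28371413-28371613: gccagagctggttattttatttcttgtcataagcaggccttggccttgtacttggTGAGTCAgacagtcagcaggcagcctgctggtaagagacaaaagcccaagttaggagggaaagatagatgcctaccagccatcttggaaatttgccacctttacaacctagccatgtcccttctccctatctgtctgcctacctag
Tead4 non-SMC-only region, chr6:128282262-128282462: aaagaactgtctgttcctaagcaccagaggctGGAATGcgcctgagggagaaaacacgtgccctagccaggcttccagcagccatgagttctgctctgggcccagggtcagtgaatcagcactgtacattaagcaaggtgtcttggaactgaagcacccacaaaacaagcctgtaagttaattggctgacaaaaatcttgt
Tead4 SMC-only region, chr6:128229408-128229608: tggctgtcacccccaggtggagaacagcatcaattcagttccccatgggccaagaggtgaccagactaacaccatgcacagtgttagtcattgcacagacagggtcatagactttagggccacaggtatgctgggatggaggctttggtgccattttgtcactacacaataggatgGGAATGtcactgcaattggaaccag
Vgll2 non-SMC-only region, chr10:51975218-51975418: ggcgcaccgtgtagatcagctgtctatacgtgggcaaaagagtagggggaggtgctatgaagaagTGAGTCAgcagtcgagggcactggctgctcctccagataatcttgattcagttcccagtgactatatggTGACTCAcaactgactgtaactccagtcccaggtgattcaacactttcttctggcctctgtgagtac
Vgll3 non-SMC-only region, chr16:65818871-65819071: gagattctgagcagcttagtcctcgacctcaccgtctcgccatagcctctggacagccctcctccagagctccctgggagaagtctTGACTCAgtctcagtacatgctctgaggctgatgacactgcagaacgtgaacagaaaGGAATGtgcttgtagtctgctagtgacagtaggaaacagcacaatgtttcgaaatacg
Vgll3 non-SMC-only region, chr16:65834820-65835020: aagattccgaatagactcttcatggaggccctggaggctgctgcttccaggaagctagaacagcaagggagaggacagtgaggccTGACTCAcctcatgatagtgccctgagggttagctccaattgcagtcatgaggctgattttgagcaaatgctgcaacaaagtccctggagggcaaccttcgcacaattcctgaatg
Vgll4 non-SMC-only region, chr6:114889032-114889232: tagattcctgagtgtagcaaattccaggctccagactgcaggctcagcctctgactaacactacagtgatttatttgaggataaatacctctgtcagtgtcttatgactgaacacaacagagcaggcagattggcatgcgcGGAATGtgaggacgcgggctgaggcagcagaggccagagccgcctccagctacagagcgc
The Vgll2 sequence held 2 AP-1 sites, and 1 of the Vgll3 sequences held an AP-1 site and a TEAD core together. The Tead4 sequence found in SMC lines showed that the core is not restricted to non-SMC-only regions.

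The summed number of peaks did not set the types apart. The SMC lines had 87 and 145 peaks in the 7 windows (mean 116 ± 41.0, SD, n = 2) and the non-SMC lines 113 and 124 (118.5 ± 7.78, SD, n = 2), a difference of 2.5 peaks. The non-SMC lists lay inside the range of the SMC lists. Within the pairs of the same number the difference was 26 peaks in pair 1 and -21 in pair 2, so the sign was not the same. Set against the length of the lists, the lines were close: per 10000 peaks listed in a line, the windows held 9.55 in SMC 1, 9.42 in SMC 2, 9.76 in non-SMC 1 and 9.63 in non-SMC 2.

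Depth, as recovered from the peak lists, differed between lines and not by type. The library background, the number of fragments expected over a peak-sized stretch, was recovered as 0.456 in SMC 1, 1.54 in SMC 2, 1.49 in non-SMC 1 and 0.639 in non-SMC 2. SMC 1 and non-SMC 2 were therefore the shallow libraries, SMC 2 and non-SMC 1 the deep ones, and totals of reads per line are not given in the sources used here. The paper reports a larger total of ATAC-seq reads for SMC than for non-SMC, without a value for each line. The lists ended at a p-value threshold of 0.01, which over the library background was reached by 3 fragments in the shallow lines and 5 in the deep lines. A window without a peak is thus below that height at this depth, not shown to be closed.

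Stronger peaks were more numerous in the non-SMC lines. Strong peaks, those with a -log10 q of 5 or more, numbered 8 in SMC 1, 27 in SMC 2, 45 in non-SMC 1 and 31 in non-SMC 2, and the ranges of the types did not overlap. The non-SMC lines were higher by 37 peaks in pair 1 and by 4 in pair 2. The q of a peak grows with depth, and strong peaks made up 14.3%, 17.1%, 38.0% and 19.5% of the whole lists in the same order. In the 7 windows they made up 9.20%, 18.6%, 39.8% and 25.0%, so that the windows followed their lists apart from a lower share in SMC 1 and a higher one in non-SMC 2.

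Gene by gene, Vgll3 alone had more peaks in both non-SMC lines than in either SMC line, 1 of 7 genes against 14.9% of all genes. No gene of the 7 had more peaks in both SMC lines, against 13.5% of all genes. Among strong peaks, Tead4, Vgll3 and Vgll4 were higher in both non-SMC lines, 3 of 7 against 32.2% of all genes, and none was higher in both SMC lines, against 3.20%. The count of 1 lay at the background share, and the count of 3 exceeded its background share by less than 1 gene.

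**Figure D1:**
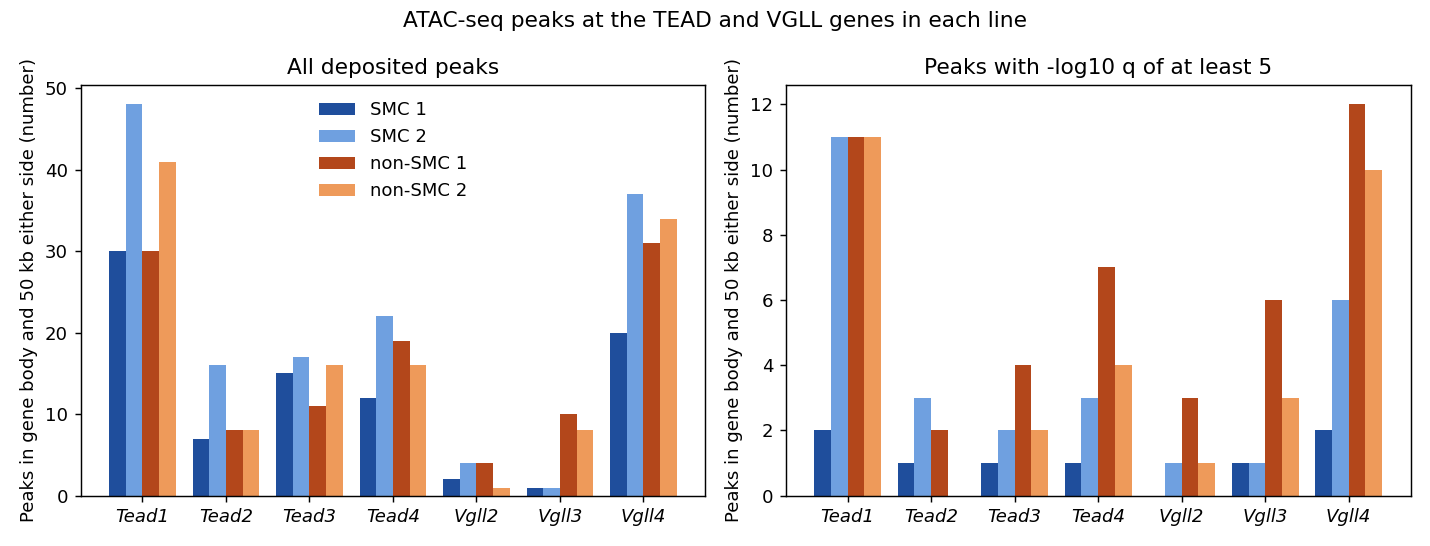
Number of peaks in each gene's window (gene body and 50 kb either side) in the 4 lines, for all peaks on the left and for strong peaks (-log10 q of 5 or more) on the right; each bar is 1 library. Vgll3 has 1 peak in each SMC line and 10 and 8 in the non-SMC lines, while the lines overlap at the other genes on the left.

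Of the 324 regions, 28 were non-SMC-only (8.64%), against 7.33% of all regions in the genome. SMC-only regions numbered 7 (2.16%), against 4.37% of all regions, and 15 regions had a peak in all 4 lines (4.63%), against 3.81%. A further 243 regions (75.0%) had a peak in 1 line alone, 93 of them in SMC 2, and the same class made up 76.9% of all regions. The 28 non-SMC-only regions were spread over all 7 genes, with 10 at Vgll4, 7 at Tead1, 4 at Tead4, 3 at Vgll3, 2 at Tead3 and 1 each at Tead2 and Vgll2. The SMC-only regions were 5 at Tead1 and 1 each at Tead4 and Vgll4.

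The non-SMC-only regions were mostly intronic. Of the 28 non-SMC-only regions, 20 had their summit in an intron, 7 between genes and 1 in an exon or untranslated region, and 0 lay within 3 kb of the first start of a protein-coding gene, against 7.58% of non-SMC-only regions in the genome. Of the 7 SMC-only regions 1 lay that close, against 9.55%, and of the 15 regions found in all 4 lines 6 did, against 64.4%. The median distance to the nearest such start was 36.7 kb for the non-SMC-only regions, 77.3 kb for the SMC-only regions and 9.47 kb for those of all 4 lines, against 42.1, 48.8 and 0.394 kb in the genome. The median GC content of the 201 bases at the summit was 51.0% in non-SMC-only regions, 51.7% in SMC-only regions and 60.2% in regions of all 4 lines. Peaks passed a -log10 q of 5 in both non-SMC lines at 12 of the 28 non-SMC-only regions, against 37.6% of such regions in the genome. In both SMC lines they did so at 0 of the 7 SMC-only regions, against 20.3%.

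**Figure D2:**
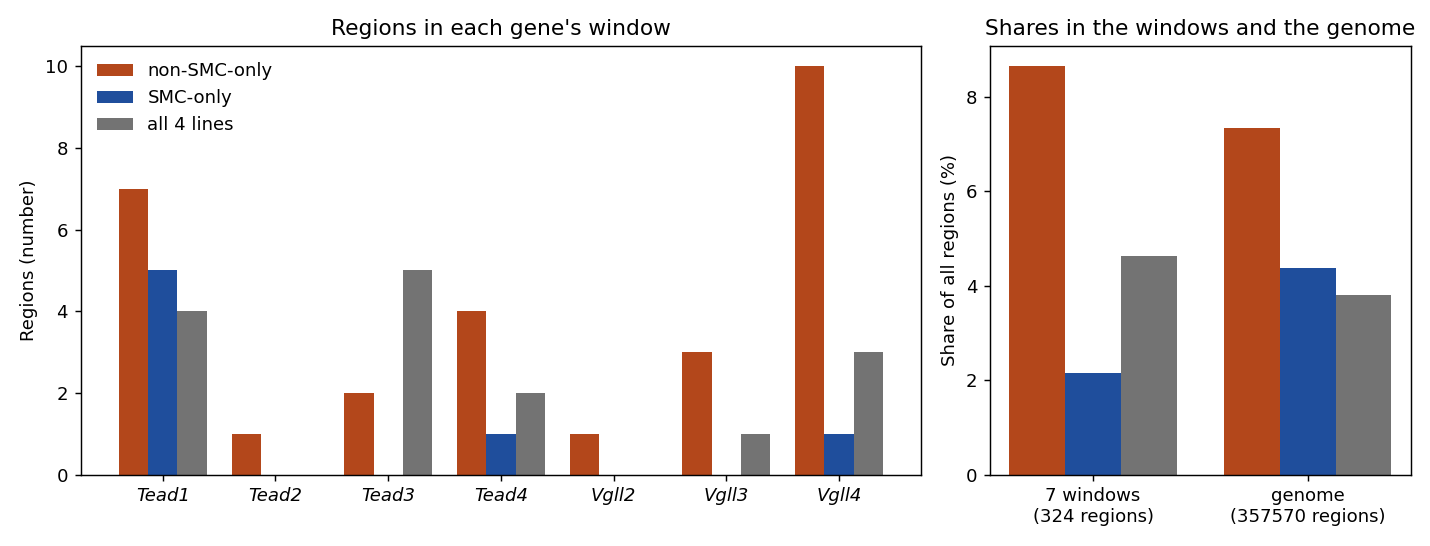
Left, number of non-SMC-only, SMC-only and shared regions in the window of each gene; right, the share of each class among the 324 regions of the 7 windows and the 357570 regions of the genome. Vgll4 holds the most non-SMC-only regions, 10, and Tead1 holds 5 of the 7 SMC-only regions.

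Tead1 is the longest of the 7 genes (chr7:112679318-112906807, plus strand) and is among the most widely used TEADs in adult tissues. Its window had 30 peaks in SMC 1, 48 in SMC 2, 30 in non-SMC 1 and 41 in non-SMC 2. The types overlapped, and SMC 2 was highest. The counts of strong peaks were 2, 11, 11 and 11, where SMC 1 alone stood lower.

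Near its start Tead1 had a strong peak in SMC 2 and a low one or none in the other lines. The highest peak within 3 kb lay at percentile 41.6 in SMC 1, 90.3 in SMC 2 and 57.8 in non-SMC 2, and non-SMC 1 listed none. The 3 peaks had summits 100, 18 and 88 bases upstream of the start, with pileups of 4, 16 and 5 fragments. A peak near the start was thus listed in 1 of the 2 non-SMC lines and in both SMC lines, and that of SMC 1 did not cover the start itself.

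The introns of Tead1 held regions of every pattern. The leading non-SMC-only region (chr7:112696764-112697546) lay 17902 bases downstream of the start in intron 1, with percentiles of 94.0 in non-SMC 1 and 92.3 in non-SMC 2 and pileups of 45 and 17 fragments. Its AP-1 site sat 1 base from the summit. A second (chr7:112813573-112814235) in intron 2 reached percentiles of 88.9 and 90.1 and held neither motif.

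Tead1 also held the leading SMC-only region of the 7 windows. It lay in intron 2 at chr7:112826139-112826690, with percentiles of 82.7 in SMC 1 and 93.3 in SMC 2 and -log10 q of 4.75 and 18.6. The E-box CAGCTG was present in its summit window. The next SMC-only region (chr7:112955160-112955523) had percentiles of 64.1 and 77.1 and lay in an exon of the neighbouring gene Rassf10, 1270 bases from the start of that gene.

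The highest Tead1 peak of the SMC lines was at one intronic site in both, 109224 and 109202 bases downstream of the start. It stood at percentile 96.4 in SMC 1 and 97.6 in SMC 2. A peak was also listed there in non-SMC 2, at percentile 55, and none in non-SMC 1. The highest peaks of the non-SMC lines lay elsewhere, at 144576 bases in non-SMC 1 (percentile 98.4) and at 40985 bases in non-SMC 2 (97.8), and both of those sites had a peak in all 4 lines. The site that led in non-SMC 2 held a TEAD core and an AP-1 site, and its percentiles in SMC 1 and SMC 2 were 77.2 and 88.7.

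Tead2 (chr7:45215753-45233644, plus strand), a TEAD active in early embryos and neural precursors, lies in a gene-dense window with 8 other protein-coding genes. Its window held 7 peaks in SMC 1, 16 in SMC 2, 8 in non-SMC 1 and 8 in non-SMC 2. The non-SMC lines lay within the range of the SMC lines. The counts of strong peaks were 1, 3, 2 and 0.

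Near its start Tead2 had low peaks in all 4 lines, at percentiles of 28.6, 40.9, 45.2 and 72.4 in the order SMC 1, SMC 2, non-SMC 1, non-SMC 2. Their summits were 534, 1403, 78 and 1127 bases downstream of the start, so the peaks were not at one position. A peak covered the annotated start itself in non-SMC 1 alone. None of these peaks passed a -log10 q of 5.

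The only type-specific region of the Tead2 window was non-SMC-only (chr7:45198434-45198978), 16896 bases upstream in an intron of Ccdc155, with middling percentiles of 51.1 and 54.1. The highest peak of 3 lines was also in Ccdc155, near 23750 bases upstream of Tead2. It stood at percentile 95.7 in SMC 1, 91.2 in SMC 2 and 75.0 in non-SMC 1 and was not listed in non-SMC 2.

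Tead3 (chr17:28331671-28350817, minus strand) had 15 peaks in SMC 1, 17 in SMC 2, 11 in non-SMC 1 and 16 in non-SMC 2. The types overlapped. The counts of strong peaks were 1, 2, 4 and 2. The recovered local background was raised here, with window medians of 2.05, 1.99, 3.04 and 2.02 times the library background against 1.35, 1.09, 1.17 and 1.09 over the whole lists, and its part in the counts was not tested.

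Tead3 had a peak near its start in all 4 lines, at percentiles of 72.2, 44.0, 52.6 and 84.8. The summits lay 195, 489, 110 and 112 bases upstream of the annotated start, and no peak covered the start itself. The shallow libraries, SMC 1 and non-SMC 2, were the higher and the deep ones, SMC 2 and non-SMC 1, the lower, so the types overlapped. The part of depth in these percentiles was not tested. Tead3 held 5 regions of all 4 lines, the most of the 7 genes. The highest of them, in every line, lay 37362 to 37366 bases downstream, 64 to 68 bases from the start of Fance, a Fanconi anemia gene, with percentiles of 91.3, 95.7, 94.4 and 97.7.

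Both non-SMC-only regions of the Tead3 window were between genes and low. The first (chr17:28371395-28371703) had percentiles of 28.3 and 65.7 and the AP-1 site printed above, and the second (chr17:28373825-28374071) had 31.9 and 33.8. No SMC-only region was found at Tead3 or Tead2.

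Tead4 (chr6:128224288-128300823, minus strand), known from the trophectoderm and from muscle regeneration, had 12 peaks in SMC 1, 22 in SMC 2, 19 in non-SMC 1 and 16 in non-SMC 2. The counts of strong peaks were 1, 3, 7 and 4, without overlap between the types. The difference was 6 peaks in pair 1 and 1 in pair 2.

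A peak covered the start of Tead4 in all 4 lines, at percentiles of 79.6 in SMC 1, 47.0 in SMC 2, 72.2 in non-SMC 1 and 91.3 in non-SMC 2. The -log10 q was 3.53 and 1.43 in the SMC lines and 19.2 and 12.8 in the non-SMC lines. On that scale the types did not overlap, and on the percentile scale they did.

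The leading non-SMC-only region of Tead4 (chr6:128282087-128282679) lay 18461 bases downstream of the start in intron 1. Percentiles were 93.1 in non-SMC 1 and 94.8 in non-SMC 2, with pileups of 51 and 25 fragments, and the TEAD core in its summit window is the one printed above. The next (chr6:128227666-128227956) was in an untranslated region of Tead4 at percentiles of 32.2 and 27.0. The only SMC-only region (chr6:128229257-128229620, intron 10) was low as well, at 60.9 and 43.9, with pileups of 5 and 7 fragments.

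The highest Tead4 peak was shared by all 4 lines and lay beyond the gene, 100008 to 100223 bases downstream of the start. Its percentiles were 98.2 in SMC 1, 99.7 in SMC 2, 99.1 in non-SMC 1 and 99.8 in non-SMC 2. The nearest protein-coding start was that of Tspan9, 57006 to 57221 bases away.

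**Figure D3:**
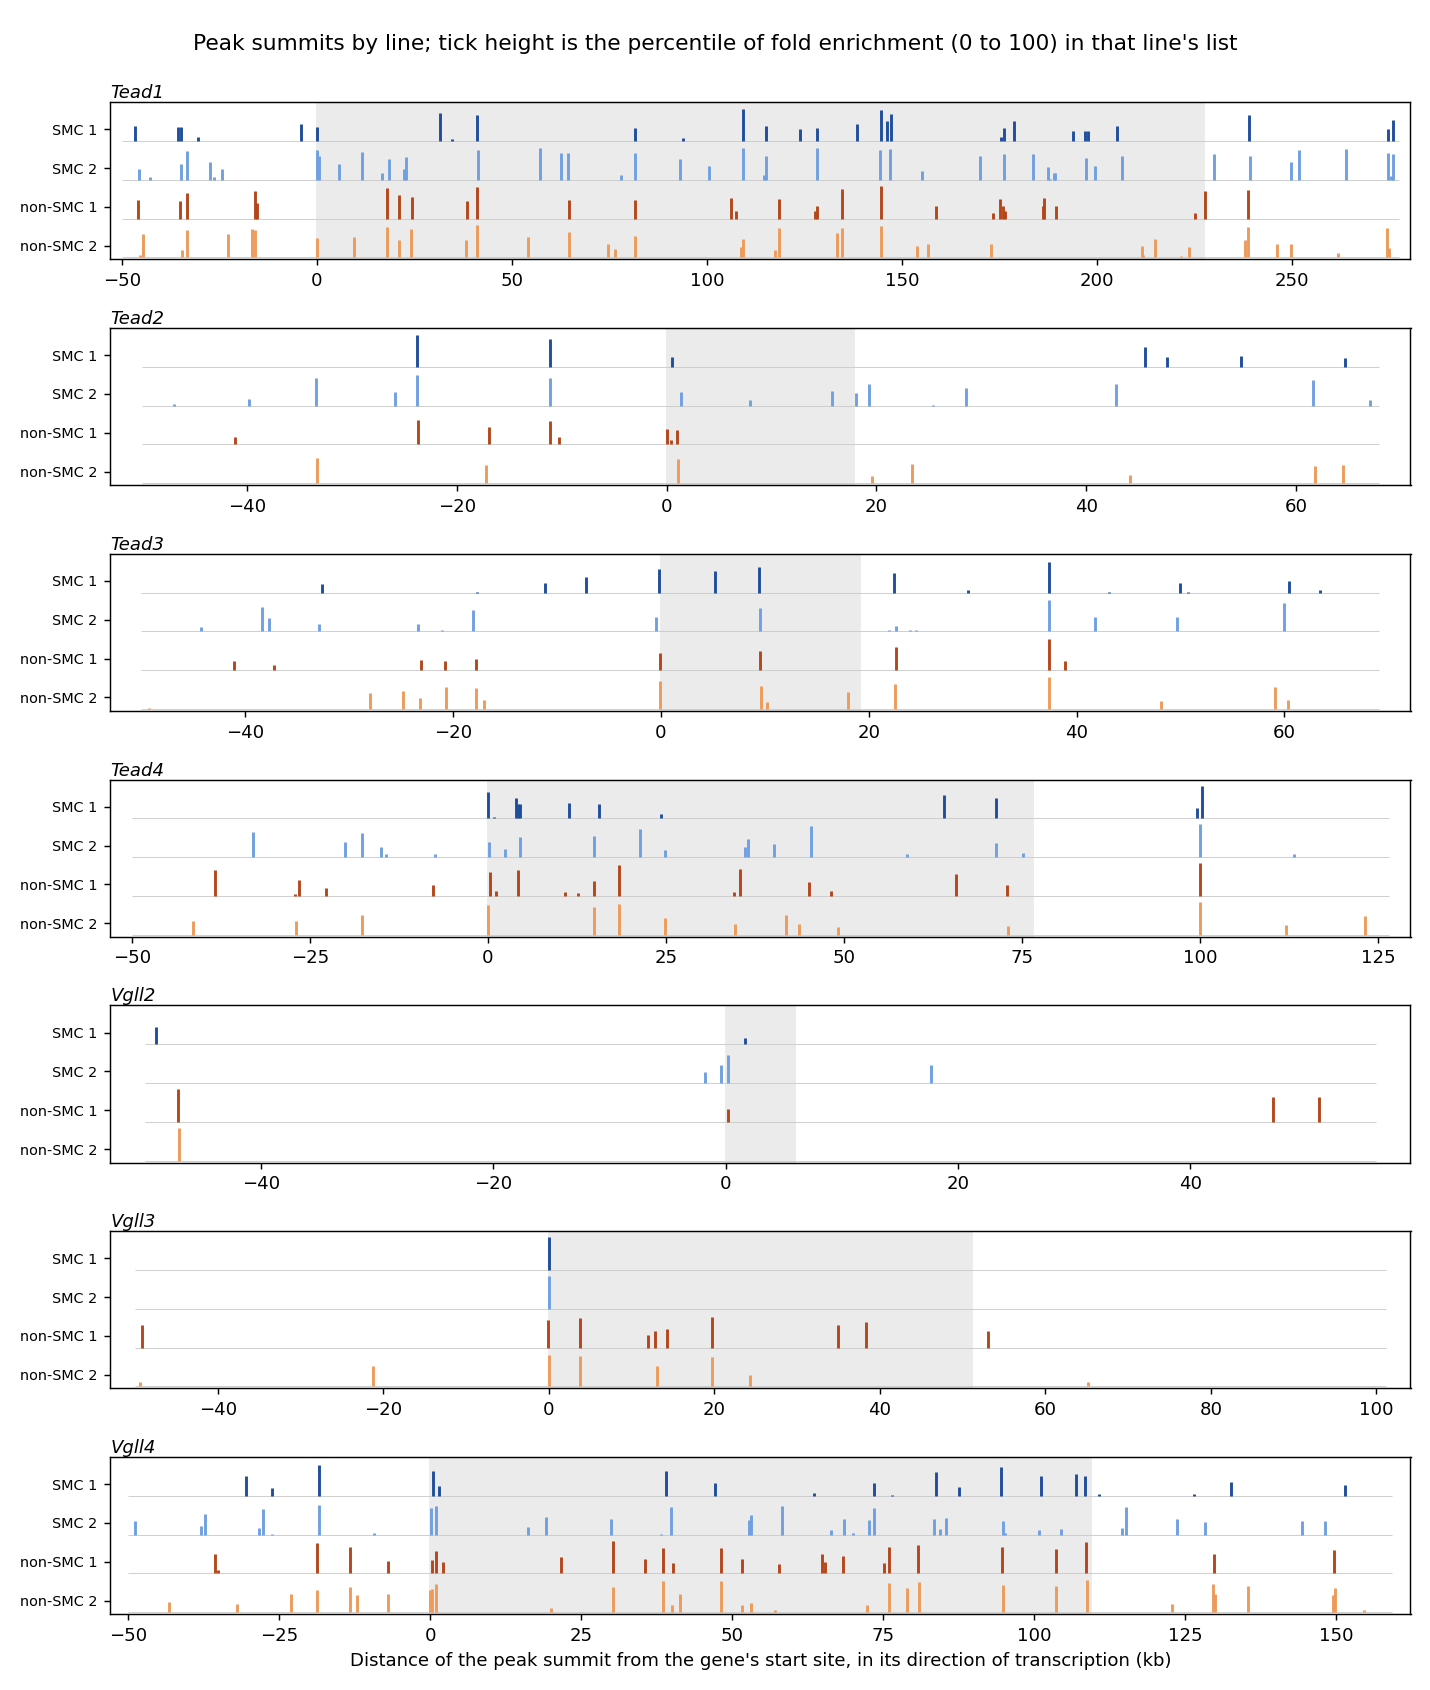
Summits of all peaks in the 7 windows, by line, at their distance in kb from the start of the gene in its direction of transcription; the height of a tick is the percentile of fold enrichment in the list of that line and the grey band is the gene body. The SMC lines have a single tick at Vgll3, at the start, and the non-SMC lines have 10 and 8.

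Vgll2 (chr10:52022502-52028471, plus strand) had few peaks, 2 in SMC 1, 4 in SMC 2, 4 in non-SMC 1 and 1 in non-SMC 2. The counts overlapped between the types. The single peak of non-SMC 2 was not at the gene but 47123 bases upstream of it.

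That upstream site (chr10:51975163-51975637) was the highest non-SMC-only region of all 7 windows. Fold enrichment was 20.95 in non-SMC 1 and 13.3 in non-SMC 2, percentiles 99.9 and 98.9, -log10 q 66.4 and 22.2, and pileups 64 and 23 fragments. Neither SMC line listed a peak there. Over its library background a listed summit would need a fold enrichment of 2.75 in SMC 1 and 2.36 in SMC 2. The site was intergenic, with Vgll2 the nearest protein-coding start, and its summit window held 2 AP-1 sites and an E-box but no TEAD core.

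The start of Vgll2 was lower. The highest peak within 3 kb lay at percentile 19.7 in SMC 1, 85.7 in SMC 2 and 38.6 in non-SMC 1, and non-SMC 2 listed none. The pileups were 3, 12 and 7 fragments, and SMC 2 alone passed a -log10 q of 5, with 5.11. The start and the upstream site thus differed in the lines that held them.

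Vgll3 (chr16:65815257-65866368, plus strand) was the gene that set the types apart by number. Its window held 1 peak in SMC 1, 1 in SMC 2, 10 in non-SMC 1 and 8 in non-SMC 2. Most of these peaks were not at shared places. Of the 14 merged regions, 10 had a peak in 1 line alone, 3 were non-SMC-only and 1 had a peak in all 4 lines. No other protein-coding gene lies in the window. The counts of strong peaks were 1, 1, 6 and 3. The difference was 9 peaks in pair 1 and 7 in pair 2, with the same sign in both, and per 10000 listed peaks the counts were 0.110, 0.0650, 0.863 and 0.622.

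The single peak of the SMC lines was the Vgll3 promoter, which was high in all 4 lines. Fold enrichment was 14.0 in SMC 1, 15.9 in SMC 2, 8.12 in non-SMC 1 and 9.82 in non-SMC 2, and the percentiles were 99.7, 99.8, 84.1 and 95.5. On this scale both SMC lines were above both non-SMC lines. The pileups were 24, 44, 66 and 31 fragments over a local background of 0.788, 1.84, 7.25 and 2.26, so the fragment numbers of the types overlapped while both non-SMC lines had the higher local background. In non-SMC 1 and non-SMC 2 the highest local background of the window was 5.04 and 3.72 times that of the library. It was at the region in intron 1 described below and not at the promoter. In SMC 1 and SMC 2 the one peak, at the promoter, had 1.73 and 1.19 times, so these ratios are not for the same site.

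The promoter sequence of Vgll3 is given from RefSeq (GRCm38.p6, chr16:65814939-65815238, plus strand), since the SMC summits, 27 and 18 bases upstream of the annotated start, lay in it or within 1 base of its end. Capitals mark the TEAD core on the other strand, a match found in 14.7% of the 32851 promoters of that table.
Vgll3 promoter: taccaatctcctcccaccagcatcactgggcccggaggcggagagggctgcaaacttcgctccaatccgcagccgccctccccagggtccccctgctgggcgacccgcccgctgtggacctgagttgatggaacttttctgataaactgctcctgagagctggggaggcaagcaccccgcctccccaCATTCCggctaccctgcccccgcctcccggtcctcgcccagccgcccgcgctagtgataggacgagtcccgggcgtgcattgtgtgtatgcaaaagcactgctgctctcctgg
RefSeq promoters of that table were matched for 5 of the 7 genes, not Tead1 or Tead4. Tead3 had 3 of them and the other genes 1 each. The TEAD core was also found in that of Vgll4 and in 2 of the 3 of Tead3, and not in those of Tead2 and Vgll2, and no AP-1 site was found in any of them, against 5.20% of all promoters.

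The non-SMC-only regions of Vgll3 were 3. The nearest to the start (chr16:65818761-65819274) lay 3714 bases downstream in intron 1, with percentiles of 91.3 and 93.0 and pileups of 88 and 28 fragments, and its summit window held an AP-1 site and a TEAD core. The second (chr16:65834750-65835151) lay 19663 bases downstream in intron 2, at percentiles of 93.3 and 88.3, with an AP-1 site 12 bases from the summit. It was the highest Vgll3 peak of non-SMC 1. The third lay 49120 bases upstream at the edge of the window and was weak in non-SMC 2, at percentile 14.1.

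Vgll4 (chr6:114860628-114969994, minus strand) had 20 peaks in SMC 1, 37 in SMC 2, 31 in non-SMC 1 and 34 in non-SMC 2. The counts overlapped. Strong peaks numbered 2, 6, 12 and 10, without overlap, and the difference was 10 peaks in pair 1 and 4 in pair 2.

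Its promoter had a peak in all 4 lines, at percentiles of 74.6, 86.7, 67.7 and 86.6. The lines overlapped, and the summits lay 491 to 1029 bases downstream of the annotated start. Vgll4 also held 10 non-SMC-only regions, of which the leading one (chr6:114888824-114889340) was intronic, with percentiles of 87.5 and 93.2, pileups of 77 and 28 fragments and a TEAD core. The next (chr6:114921739-114921992) had percentiles of 78.6 and 94.7 and covered 2 annotated internal transcript starts of Vgll4, 48173 and 48178 bases downstream of the first.

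The SMC-only region of Vgll4 (chr6:114896394-114896628) was intronic and lower, at percentiles of 39.3 in SMC 1 and 81.6 in SMC 2. The highest Vgll4 peak of both SMC lines was a site 18370 and 18406 bases upstream, at percentiles of 92.4 and 89.8, in a region of all 4 lines. In non-SMC 1 it was an intronic site 30197 bases downstream (97.0), and in non-SMC 2 an exonic one 108704 bases downstream (97.4). The medians of local background in the Vgll4 window were 1.85, 1.77, 2.42 and 1.51 times the library background, and their part in the counts was not tested.

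Most promoters had a peak in all 4 lines, though often a low one. Tead2, Tead3, Tead4, Vgll3 and Vgll4 had a peak within 3 kb of the start in all 4 lines, 5 of 7 against 48.7% of all genes, and Tead1 and Vgll2 each lacked one in a single non-SMC line. The count fell from 5 to 2 when the peaks were thinned to a common depth, 50% of that of SMC 1, the shallowest line. With strong peaks alone it fell to 1 (Vgll3). No promoter had peaks in one type only.

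**Figure D4:**
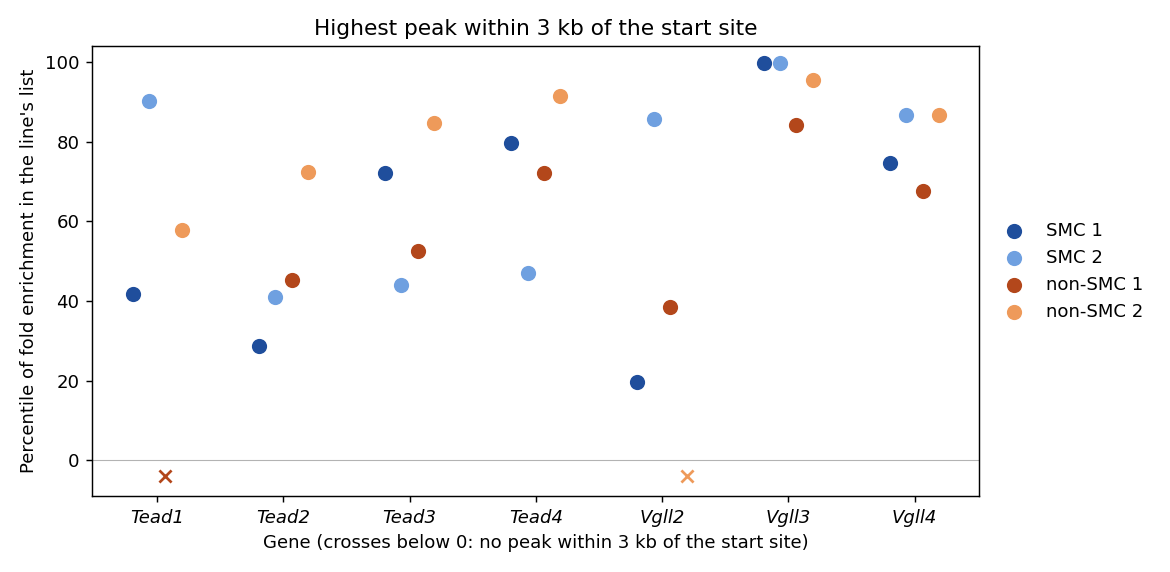
Percentile of fold enrichment of the highest peak within 3 kb of each start site, within the list of its line, in the 4 lines; a cross below 0 marks a line without such a peak. Vgll3 is the highest of the 7 in every line, at 84.1 to 99.8, and the crosses are non-SMC 1 at Tead1 and non-SMC 2 at Vgll2.

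Motif counts over the type-specific regions are small. The TEAD core was in 8 of 28 non-SMC-only regions (28.6%, Wilson 95% interval 15.3 to 47.1), against 19.3% of the 26224 non-SMC-only regions of the genome and 12.6% of all regions. AP-1 was in 11 of 28 (39.3%, 23.6 to 57.6), against 46.8%. Either motif was present in 17 of the 28 and both in 2. The genome values lay inside both intervals, which are wide with 28 regions. Regions are not replicates, so the intervals are no test. They do not decide whether these windows differ from other non-SMC-only regions in either motif.

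Among the 7 SMC-only regions the AP-1 site was in 0, which allows up to 35.4%, against 4.19% of SMC-only regions in the genome. The E-box was in 2 of 7 (28.6%, 8.22 to 64.1), against 21.1%. The RUNX motif TGTGGT was in 5 of the 28 non-SMC-only regions (17.9%, 7.88 to 35.6), against 29.7%. The NFI core TTGGCA was in 4 of the 28 (14.3%, 5.70 to 31.5), against 16.2%. In the 15 regions of all 4 lines the TEAD core was in 4 (26.7%, 10.9 to 52.0), against 9.20%. Those sets differ in position, with 6 of the 15 within 3 kb of a start, against 64.4% in the genome. Intervals cover counting error only, and a motif match is a match of letters, not a bound site.

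**Figure D5:**
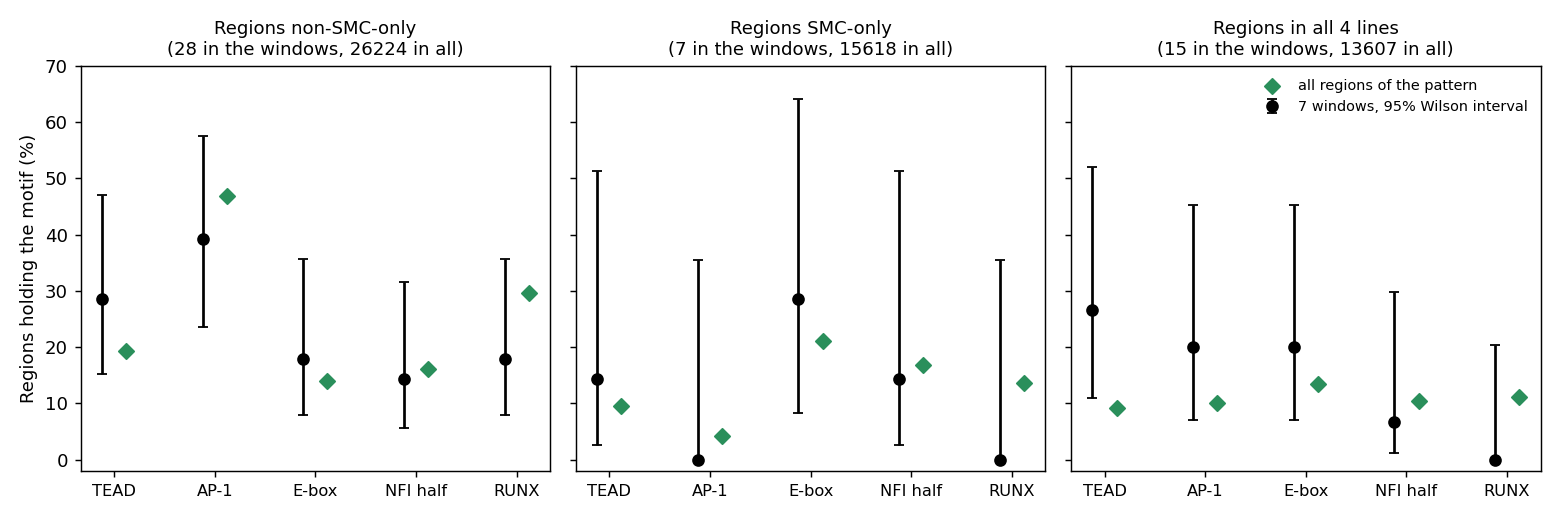
Share of regions holding each motif within 100 bases of the summit, for the non-SMC-only, SMC-only and shared regions; circles with Wilson 95% intervals are the regions of the 7 windows and diamonds all regions of that class. The intervals include the genome value except for the TEAD core in shared regions (4 of 15, 26.7% against 9.20%), but regions are not replicates and the intervals are no test. Of these 15 regions, 6 lie within 3 kb of a start, against 64.4% of shared regions in the genome, so the sets differ in position.

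The other Hippo genes were counted with the same window rule. Of 22 genes, 6 had more peaks in both non-SMC lines and 0 in both SMC lines, against 14.9% and 13.5% of all genes. For strong peaks the numbers were 12 and 0, against 32.2% and 3.20%. Of the co-activators, Wwtr1 (TAZ) had 2, 9, 31 and 28 peaks and did not overlap, and Yap1 had 4, 11, 20 and 8 and did. In the kinase cascade 2 of 13 genes were higher in both non-SMC lines by all peaks and 5 of 13 by strong peaks. These counts lay near the shares of all genes, 14.9% and 32.2%. Among the targets 3 of 7 genes were higher by all peaks and 6 of 7 by strong peaks. Of the TEAD genes 0 of 4 were higher by all peaks and 1 of 4, Tead4, by strong peaks.

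The labels were set against marker promoters. Chga, a neuroendocrine granule protein, had promoter peaks in the SMC lines only (2 and 3), as did the epithelial marker Epcam (2 and 1). Syp, also neuroendocrine, went against the labels, with 1 and 1 in the SMC lines and 3 and 2 in the non-SMC lines. Insm1 had 2, 2, 2 and 0 and Ncam1 3, 3, 3 and 2, so their counts overlapped. Cd44 had 0, 2, 1 and 1 promoter peaks and Vim 1, 3, 2 and 2, and neither separated the types there. Strong peaks in the windows of these markers gave a mixed picture. They numbered 0, 1, 11 and 11 at Cd44, 1, 1, 8 and 6 at Vim and 5, 3, 2 and 2 at Chga. At Ncam1 they numbered 2, 2, 14 and 4, higher in both non-SMC lines and so against the labels. At Epcam they numbered 3, 3, 3 and 3, at Insm1 1, 5, 1 and 0 and at Syp 4, 6, 6 and 3, without separating the types. The immune marker Ptprc had 0, 0, 1 and 0 promoter peaks and the endothelial marker Pecam1 0, 0, 1 and 1. Strong peaks in their windows numbered 1, 2, 5 and 0 at Ptprc and 2, 5, 5 and 4 at Pecam1. The deleted segments of Rb1 and Trp53 are not given in the sources used here, so their peaks check no genotype.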

How the data were processed

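ATAC-seq, which reads open chromatin by the insertion of a transposase, was performed by the authors on 2 SMC and 2 non-SMC lines with 1 library each. The authors mapped paired-end reads to mm10 with Bowtie2 2.3.4, removed duplicate reads and called peaks in each library with MACS2 2.1.1, and whether reads were shifted for the transposase is not given in the sources used here. The deposited peak lists held for each peak the fold enrichment, the -log10 p and the -log10 q, and a score made by the authors that was not used. Fold enrichment was taken as the ratio of pileup to local background at the summit, with 1 added to each.

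Peaks on the 19 autosomes and the X and Y chromosomes were kept (91057 to 153954 per line, with 61 to 85 left out). Peaks overlapping by at least 1 base were merged. Windows were the gene body in GENCODE M21 and 50 kb either side, promoters 3 kb either side of the gene start, and motifs were searched on both strands within 100 bases of the summit of the highest peak (5 motifs). Pileup and local background were recovered by solving fold enrichment and p for a Poisson tail. Scripts ran in Python 3.11.15 with numpy 2.4.6, scipy 1.17.1 and pandas 2.3.3, and were tested on simulated data and against bedtools 2.31.1.

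For each gene the text names its promoter peaks, the highest peak of each line and the 2 regions of either type with the highest mean percentile. Sequences printed are those of such regions with GGAATG or TGACTCA, and the Vgll3 promoter was added after its values were seen. The genes and lists were chosen with earlier results of these data known. Read totals per line are not given in the sources used here, and replicates are separate lines whose spread includes line and library. A marker is not reported here.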

Additional observations from a re-analysis of the deposited data

How the results depend on the processing

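The summed difference of 2.5 peaks ranged from 1.5 to 20.5 when q, list length, depth, flank or the counting rule was changed and from -26.5 to 31.5 when a line was left out. The 20.5 is the value for strong peaks alone, where the types did not overlap. With strong peaks alone the 7 windows held 17 non-SMC-only regions and 1 SMC-only region, 3 genes with non-overlapping counts and 1 promoter open in all 4 lines. Weaker peaks of the other type were not counted there, so these type-only regions are not all among those called above. With equal numbers of top peaks Vgll4 joined Vgll3 (2 genes). Thinning to a common depth below that of every line left 2 such promoters, and Vgll3 as the only gene apart. It left 21 non-SMC-only and 6 SMC-only regions. Non-SMC-only regions numbered 17 without a flank, 18 with 10 kb and 44 with 100 kb, and SMC-only regions 14 with 100 kb and 3 when peaks had to overlap by at least 50% of both. Under all 11 alternatives Vgll3 was higher in each non-SMC line kept than in any SMC line kept. The means of the types differed by 3.5 to 9 peaks.

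When a line was left out, non-SMC-only regions numbered 30 to 86, SMC-only regions 11 to 100, and the TEAD core share 14.1% to 29.4%. Fewer lines are then needed to call a region. With no line left out, the TEAD core share was 17.9% within 50 bases of the summit and 46.4% within 250 bases. It was 33.3% with a flank of 10 kb and 20.5% with 100 kb. Without SMC 2, 4 genes were apart (Tead2, Tead4, Vgll3 and Vgll4), and 1 without any other line. No paired analysis was possible because none of these results comes from a test, and the differences within the 2 pairs are given as values. Precision is limited by 2 lines a type, by the shallow libraries SMC 1 and non-SMC 2, and by peak lists that hold no signal below their threshold. No alternative was added after the data were seen.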
